A study of Mus musculus with 12 samples.

Results

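The comparison set microglia from mice labelled knockout (KO) for Kpna4 against microglia from mice labelled wild type (WT), with both groups given lipopolysaccharide (LPS). It used 6 of the 12 libraries of the study: KO replicates 1, 2 and 3 (animals 194, 196 and 198) and WT replicates 1, 2 and 3 (animals 195, 197 and 204). Genotype was read from the labels, and no measured value chose a library. All 6 mice were 8 to 9 weeks old and received 1 mg/kg LPS, a component of bacterial cell walls, intraperitoneally 20 h before dissection. Mice without LPS were not analysed here, so the contrast is one of genotype within the inflamed state. Microglia were sorted by flow cytometry from enzymatically digested whole brain, each library coming from 1 animal by its number in the labels. The labels do not name the deleted part of Kpna4, and they describe no cell type restriction of the deletion. The other 6 libraries, astrocytes of the same animals, served here only to show in which sorted cells a gene had its higher level.

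Kpna4 encodes importin α4, an adaptor that binds proteins carrying a nuclear localization signal and takes them, together with importin β1, through the nuclear pore. Among the cargoes described for importin α proteins are transcription factors of inflammation such as NF-κB and STAT proteins. Microglia are the resident macrophages of the brain, and LPS acts on macrophages through the CD14 and TLR4 receptors, after which cytokines, chemokines and interferon-stimulated genes are transcribed.

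Library totals lay between 10.3 M and 14.5 M estimated counts, and levels are given as CPM, the counts scaled to a common library total. The 13 markers of microglia summed to 18787 to 24545 CPM in the 6 libraries and overlapped between genotypes, against 272 to 804 CPM in the astrocyte libraries. WT replicate 1 stood apart in the number of genes with a count, 20905 against 16827 to 17650 in the other 5, and in its stress genes described further on. WT replicate 3 held the most RNA of other brain cells. The first 2 principal components of the tested genes took 29.8% and 22.4% of the variance. Since the RNA is bulk RNA of a sorted population, fewer cells of a type and less RNA per cell cannot be told apart. Because the libraries were amplified without molecular identifiers, limits from counts cover counting error only.

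Kpna4 was not near 0 in any library. Its level was 67.9, 96.4 and 89.0 CPM in WT and 78.6, 68.5 and 59.8 CPM in KO, and the ranges overlapped. KO over WT gave a log2 fold change of -0.31 (SE 0.21, 95% interval -0.75 to 0.13, unadjusted edgeR p 0.153, adjusted p 0.778). The table sums reads over the whole gene, so transcripts that lack a deleted part but are still made would be counted, and the value does not check the genotype labels. KO and WT below name the libraries by their labels.

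Of 28 nuclear transport receptors and Ran-cycle proteins tested, 0 reached an unadjusted p under 0.05, and their median log2 fold change was 0.026 against -0.0013 for all tested genes; its sign turned under 4 of 15 alternatives. Kpna3, the importin α gene closest in sequence to Kpna4, was at 78.0, 82.3 and 75.8 CPM in WT and 117, 94.2 and 95.9 CPM in KO. All KO libraries lay above all WT libraries, with a log2 fold change of 0.36 that did not pass (edgeR adjusted p 0.727). That value was 0.10 with offsets for transcript length and GC content, and 0.12 with choroid plexus marker level as a covariate. Cse1l, the exporter that returns importin α to the cytoplasm, was also higher in every KO library (log2 fold change 0.41, SE 0.21). Ipo13, an importin β family carrier, was lower in every KO library (log2 fold change -0.43, SE 0.21). With the same offsets Cse1l was at 0.22 and Ipo13 at -0.19, and with the same covariate they were at 0.67 and -0.48. Kpna2 and Kpnb1, which encodes importin β1, overlapped between genotypes, with log2 fold changes of 0.36 and 0.15. Among 28 nucleoporins the single one under that p was Nup210, a membrane ring protein of the pore, at 65.4, 35.4 and 35.9 CPM in WT and 19.8, 26.4 and 26.0 CPM in KO (log2 fold change -0.95, SE 0.28, unadjusted edgeR p 0.00479), where no libraries overlapped.

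Over all genes, the genotype contrast gave no call. With edgeR's quasi-likelihood test 0 of 14191 genes (0.0%) passed at an adjusted p under 0.05, 0.394 being the smallest value. The unadjusted p was under 0.05 in 1053 genes, 7.42% of the table tested. Of these, 719 were lower in KO (5.07% of the tested genes) and 334 were higher (2.35%). Complete separation of the libraries was even between directions: in 932 genes (6.57%) every KO library lay below every WT library, and in 926 genes (6.53%) every KO library lay above. The genes named below were therefore ranked and described by unadjusted p and size, and none of them was called by this fit. Without the filter on low counts edgeR called 121 of 24255 genes (0.499%), Meg3, Parva, Igf2r and Il1r2 among them. DESeq2 called 41 of 16254 genes (0.252%), of which 35 were lower and 6 higher in KO, and limma voom called 0. A higher mean CPM in the astrocyte than in the microglia libraries was found for 32 of the 41 genes of DESeq2, against 38.5% of the tested genes. The KO libraries were lower on the genes with the smallest adjusted p of DESeq2: Meg3 (0.00188), Angptl2 (0.00491), Parva (0.00491), Slc6a17 (0.00491) and Igf2r (0.00579).

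The precision depended on the level. For the 2017 genes at 100 CPM or more, the median 95% interval reached 0.43 on either side of the log2 fold change, for the 6733 genes between 10 and 100 CPM it reached 0.58, and below 10 CPM it reached 1.70. Among the genes at 100 CPM or more, 10 had a log2 fold change under -1 and 0 had one above 1. Of the 100 most abundant genes, 16 were lower and 4 higher in KO at an unadjusted p under 0.05. Rnf213, a large ubiquitin ligase induced by interferon, was among them at 1596, 1439.9 and 1308 CPM in WT and 932, 769 and 942 CPM in KO, with no overlap (log2 fold change -0.74, SE 0.19, edgeR adjusted p 0.478, DESeq2 adjusted p 0.0169).

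**Figure D1:**
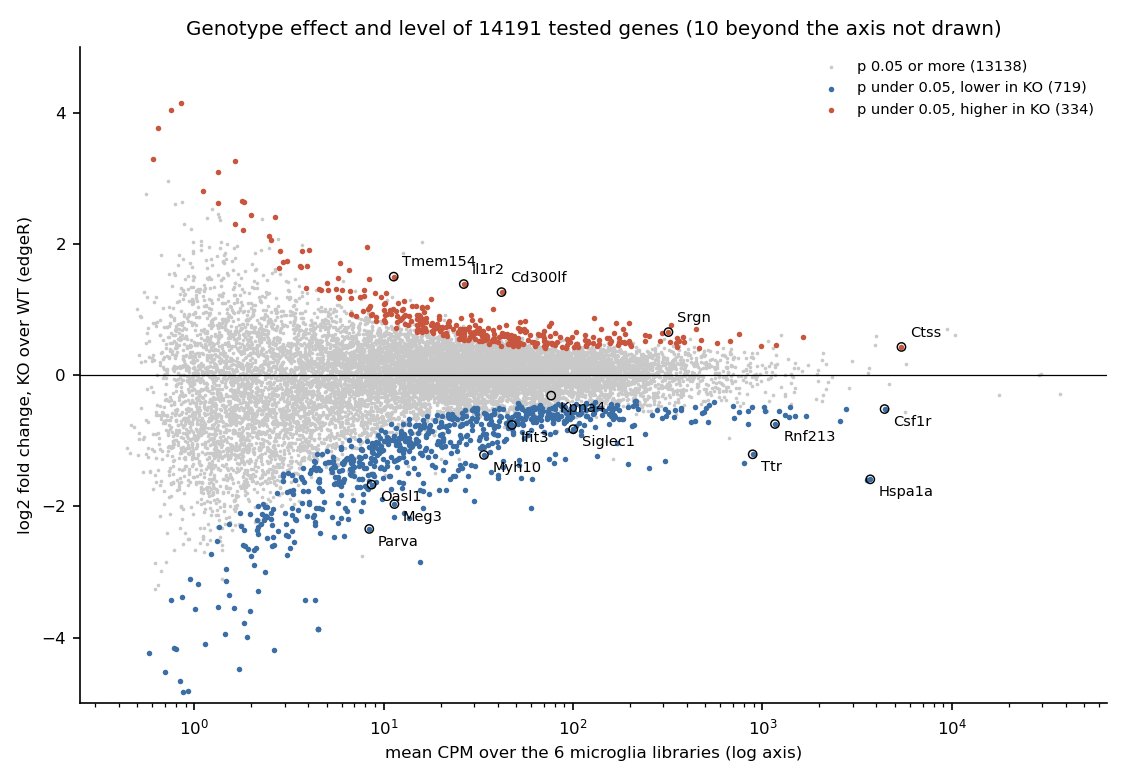
Log2 fold change, KO over WT (vertical axis) against the mean CPM over the 6 libraries (horizontal log axis), 1 point per tested gene. Blue points (719) were lower and red points (334) higher in KO at an unadjusted edgeR p under 0.05; grey points had a larger p, and circles mark named genes. Large fold changes lie at low CPM, and no gene at 100 CPM or more lies above a log2 fold change of 1.

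The genes with the smallest p were lower in KO. Meg3, a maternally expressed long non-coding RNA of the imprinted Dlk1-Dio3 region, was at 19.3, 15.3 and 19.6 CPM in WT and 4.94, 4.43 and 4.75 CPM in KO. The 3 KO libraries lay close together and below every WT library (log2 fold change -1.96, SE 0.34, unadjusted edgeR p 5.14e-05, adjusted p 0.394). Parva, the focal adhesion protein α-parvin that links integrins to actin, was at 11.01, 11.6 and 19.5 CPM in WT and 1.94, 2.26 and 4.13 CPM in KO (log2 fold change -2.34, SE 0.45). Myh10, the heavy chain of non-muscle myosin IIB, was at 52.5, 50.9 and 37.7 CPM in WT and 19.3, 19.99 and 22.7 CPM in KO (log2 fold change -1.21, SE 0.24). Dock6, an exchange factor for the GTPases RAC1 and CDC42, was at 47.5, 28.4 and 32.4 CPM in WT and 13.6, 15.4 and 13.98 CPM in KO (log2 fold change -1.36, SE 0.27). Ltbp3, which holds latent TGF-β in the matrix, was at 15.1, 21.1 and 41.2 CPM in WT and 3.88, 6.61 and 8.68 CPM in KO (log2 fold change -2.02, SE 0.41). In all 5 genes the libraries of the genotypes did not overlap, each had an edgeR adjusted p of 0.394, and each had a higher mean in the astrocyte libraries except Dock6, at 29.6 CPM there and within its range in microglia.

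Ranked by size among genes at a mean of 5 CPM or more whose libraries did not overlap, the 10 lowest in KO were Sod3, Frmpd4, Parva, Chd5, Rims2, Igf2r, Spock2, Lrriq1, Strip2 and Aqp1. Their log2 fold changes ran from -2.47 to -2.07, with edgeR adjusted p of 0.394 to 0.542. Sod3, an extracellular superoxide dismutase, was at 5.58, 8.25 and 14.1 CPM in WT and 0.872, 1.25 and 2.89 CPM in KO. Igf2r, which sorts lysosomal enzymes and clears IGF2, was at 14.4, 18.3 and 34.5 CPM in WT and 2.91, 3.93 and 8.13 CPM in KO. Aqp1, a water channel of the choroid plexus, was at 7.31, 8.16 and 21.3 CPM in WT and 2.81, 2.68 and 3.31 CPM in KO. These are low levels in microglia, and 9 of the 10 genes had a higher mean CPM in the astrocyte libraries; Spock2, a matrix proteoglycan of brain, was at 25.6, 8.34 and 21.3 CPM in WT microglia, 2.42, 4.18 and 5.92 CPM in KO microglia and a mean of 160.1 CPM in astrocytes. All 10 kept an unadjusted p under 0.05 with each of the 6 libraries left out in turn, and 7 kept it with the mean level of other-cell markers as a covariate. With the choroid plexus markers alone as the covariate 3 kept it (Parva, Chd5 and Spock2), and the 10 log2 fold changes ran from -1.92 to -0.72. Among the 5 genes of smallest p, Ltbp3 was at -0.81 with that covariate and had a p of 0.0899. Aqp1 is itself a marker in both covariates, so its own level enters them.

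On the higher side, the genes with the smallest p had their main level in microglia. Cd300lf, an inhibitory receptor of myeloid cells, was at 17.3, 31.5 and 24.4 CPM in WT and 75.2, 49.2 and 53.9 CPM in KO and did not overlap (log2 fold change 1.27, SE 0.26, unadjusted edgeR p 0.000309, adjusted p 0.394, DESeq2 adjusted p 0.015). Il1r2, the decoy receptor that binds IL-1 without signalling, was at 7.92, 22.8 and 12.9 CPM in WT and 38.4, 42.9 and 34.1 CPM in KO (log2 fold change 1.39, SE 0.34, edgeR adjusted p 0.439, DESeq2 adjusted p 0.0494). Tmem154, a membrane protein, was at 3.02, 8.07 and 6.47 CPM in WT and 19.6, 14.6 and 16.05 CPM in KO (log2 fold change 1.502, SE 0.40). Every KO library was above every WT library in these 3 genes, and their means in astrocytes were 1.03, 0.670 and 0.565 CPM. Srgn, the proteoglycan core of secretory granules, was the most abundant gene of the 5 with the smallest p in this direction, at 227, 259 and 250.5 CPM in WT and 429.9, 381 and 367 CPM in KO (log2 fold change 0.66, SE 0.18, edgeR adjusted p 0.539). Slc10a6, a carrier of steroid sulfates, had 0 counts in all 3 WT libraries and 2.13, 1.67 and 1.45 CPM in KO. Against a limit of 3 counts per WT library (0.269 CPM), its KO mean of 1.75 CPM was at least 6.50-fold higher.

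The 10 highest in KO by size, under the same rule, were Cyb5d2, Tmem154, Nrap, H3c7, Grk5, Il1r2, Trem1, Lysmd1, Aamdc and Prorsd1. Their log2 fold changes ran from 1.29 to 1.71, with edgeR adjusted p of 0.439 to 0.662. Trem1, a receptor that amplifies the inflammatory response of myeloid cells, was at 2.34, 3.05 and 4.18 CPM in WT and 12.98, 5.52 and 5.58 CPM in KO, so KO replicate 1 was above the other KO libraries (log2 fold change 1.31, SE 0.54). Grk5, a kinase of activated G-protein-coupled receptors, was at 3.62, 3.59 and 0.913 CPM in WT and 10.7, 4.18 and 7.16 CPM in KO (log2 fold change 1.40, SE 0.63). The KO values of Cyb5d2, a heme-binding protein, were 6.10, 8.70 and 12.5 CPM against 2.79, 0.897 and 4.49 CPM in WT (log2 fold change 1.71, SE 0.59). All 10 kept their sign with each library left out, but 4 of them kept an unadjusted p under 0.05 in all 6 of those fits: Tmem154, Nrap, Il1r2 and Lysmd1.

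**Figure D2:**
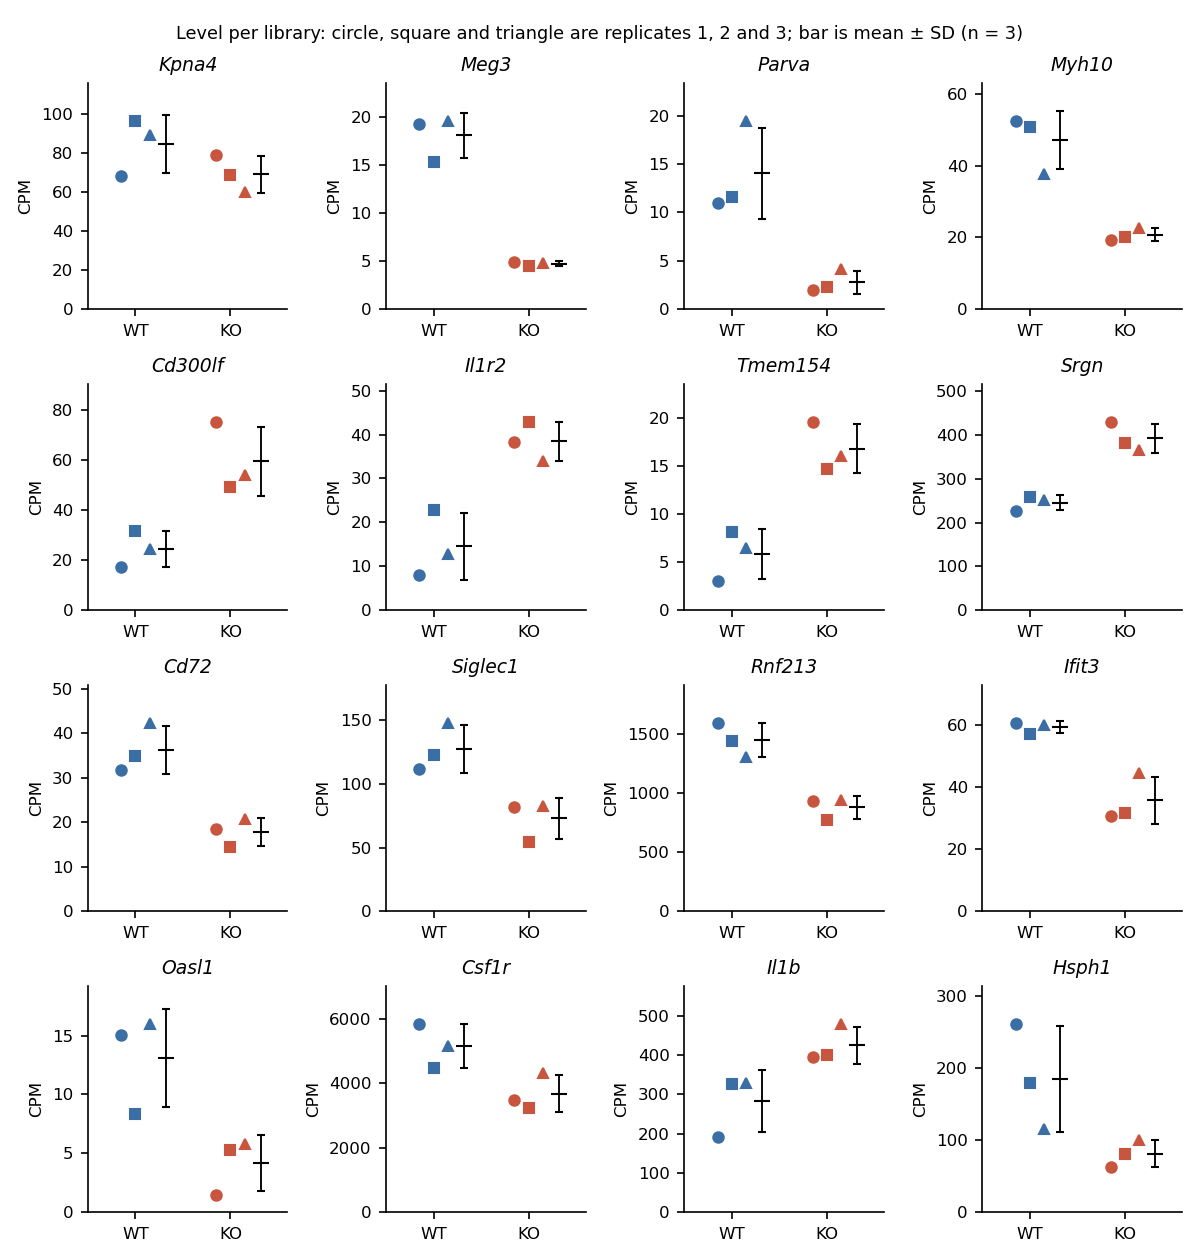
CPM in each of the 6 libraries for 16 genes (vertical axes start at 0), blue for WT and red for KO, with circle, square and triangle for replicates 1, 2 and 3 and black bars for mean ± SD (n = 3). The Kpna4 libraries overlap, those of the other 15 genes do not.

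Stability was measured by leaving out each library in turn. Of those 1053 genes, 1047 kept their sign in all 6 fits and 212 stayed under 0.05 in all 6. These 212 were 164 genes lower in KO (1.16% of the tested genes) and 48 higher (0.338%). The single libraries that most of the 1053 genes rested on were WT replicate 1, without which 495 kept the p, and KO replicates 1 and 2, without which 566 and 567 kept it. The number of genes at that p over the whole table was 678 without WT replicate 1 (188 higher, 490 lower). Without WT replicate 3 the directions were nearly even, at 581 higher and 719 lower. The gene with the narrowest range among the 5 lowest in p was Meg3, at -2.06 to -1.91, and among the 5 higher ones of smallest p, Slc10a6 left out, it was Srgn, at 0.60 to 0.72. Slc4a5, a bicarbonate transporter of the choroid plexus, ran from -2.33 to -1.26.

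**Figure D3:**
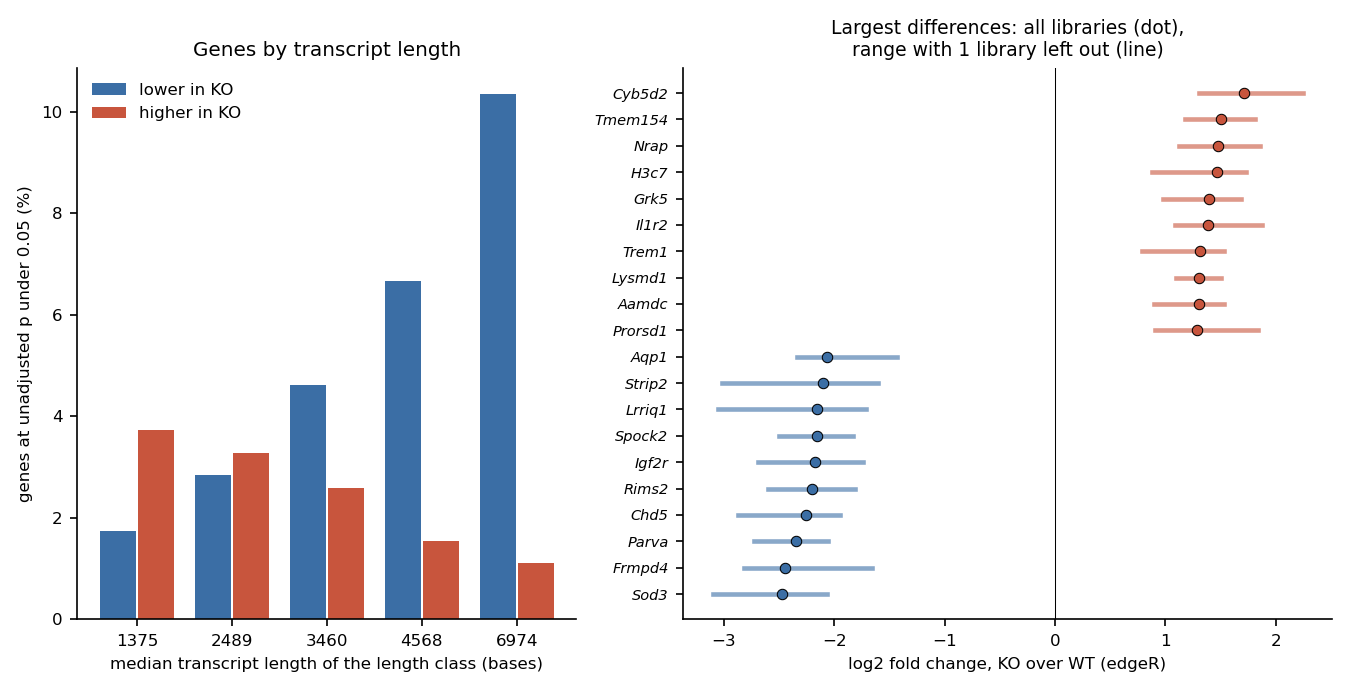
Left: percent of tested genes at an unadjusted edgeR p under 0.05 that were lower (blue) or higher (red) in KO, in 5 classes of transcript length with equal numbers of genes, labelled with their median length in bases. Right: log2 fold change of the 20 genes with the largest differences (dot: 6 libraries; line: range with 1 library left out); no line crosses 0.

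RNA of other brain cells was lower in the KO libraries by most markers. The 132 markers of 15 cell types other than microglia took 0.277%, 0.249% and 0.602% of the counts in WT and 0.179%, 0.179% and 0.286% in KO. The means were 0.376% ± 0.196 in WT and 0.215% ± 0.0619 in KO (SD, n = 3 each), the libraries overlapped, and the 2-sided exact permutation p was 0.3, where 0.1 is the smallest that 3 against 3 can give. The difference of KO minus WT was -0.161 percentage points, and without WT replicate 3 it was -0.048. Of the 91 markers with enough counts to be tested, 70 were lower in KO, 21 of them at an unadjusted p under 0.05, and 0 were higher at that p. Over all tested genes 5.07% were lower and 2.35% higher at that p. Genes of low level also leaned to the lower side as a whole. Among the 5441 tested genes under a mean of 10 CPM, 259 were lower and 58 higher at that p, with a median log2 fold change of -0.19.

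Choroid plexus epithelium, which makes cerebrospinal fluid, showed the difference in all of its 9 markers, 7 of them at an unadjusted p under 0.05. Its summed level was 972, 1247 and 2483 CPM in WT and 371, 589 and 981 CPM in KO, so KO replicate 3 just overlapped WT replicate 1. Ttr, the thyroid hormone carrier that this epithelium secretes, made up most of it at 784, 987 and 1934 CPM in WT and 327, 502 and 795 CPM in KO (log2 fold change -1.21, SE 0.33). Clic6, a chloride channel family protein of the same epithelium, was at 39.4, 55.7 and 82.2 CPM in WT and 13.8, 17.9 and 31.1 CPM in KO without overlap (log2 fold change -1.51, SE 0.32, DESeq2 adjusted p 0.00968). F5, coagulation factor V and a marker of it, was at 48.9, 79.04 and 159 CPM in WT and 6.59, 17.9 and 46.3 CPM in KO (log2 fold change -2.03, SE 0.53).

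All 12 astrocyte markers were lower in KO, 5 at an unadjusted p under 0.05, with sums of 631, 418 and 913 CPM in WT and 400, 463 and 450 CPM in KO. Their highest member was Slc1a2, the glial glutamate transporter, at 267, 147 and 375 CPM in WT and 150.5, 155 and 165 CPM in KO, so WT replicate 2 was as low as the KO libraries. All 10 tested endothelial markers were lower in KO, 3 at that p, with a summed level of 39.6 to 114 CPM in WT and 35.1 to 43.3 CPM in KO. The 11 oligodendrocyte markers summed to 297 to 1782 CPM in WT and 334 to 843 CPM in KO, and 6 were higher and 5 lower in KO, with 0 higher and 2 lower at that p. Over the 6 libraries the 10 T and NK cell markers summed to 1.38 to 4.07 CPM, 4 of them being at 0 throughout, and the 6 monocyte markers to 1.84 to 11.9 CPM. The 10 neutrophil markers summed to 2.33 to 26.8 CPM. The 5 erythroid markers, such as the globin gene Hbb-bs, stood at 33.3 to 89.4 CPM in WT and 38.3 to 53.1 CPM in KO, and 4 of the 5 were lower in KO, 0 of them at that p. Border macrophage markers overlapped, at 184 to 395 CPM in WT and 244 to 376 CPM in KO.

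**Figure D4:**
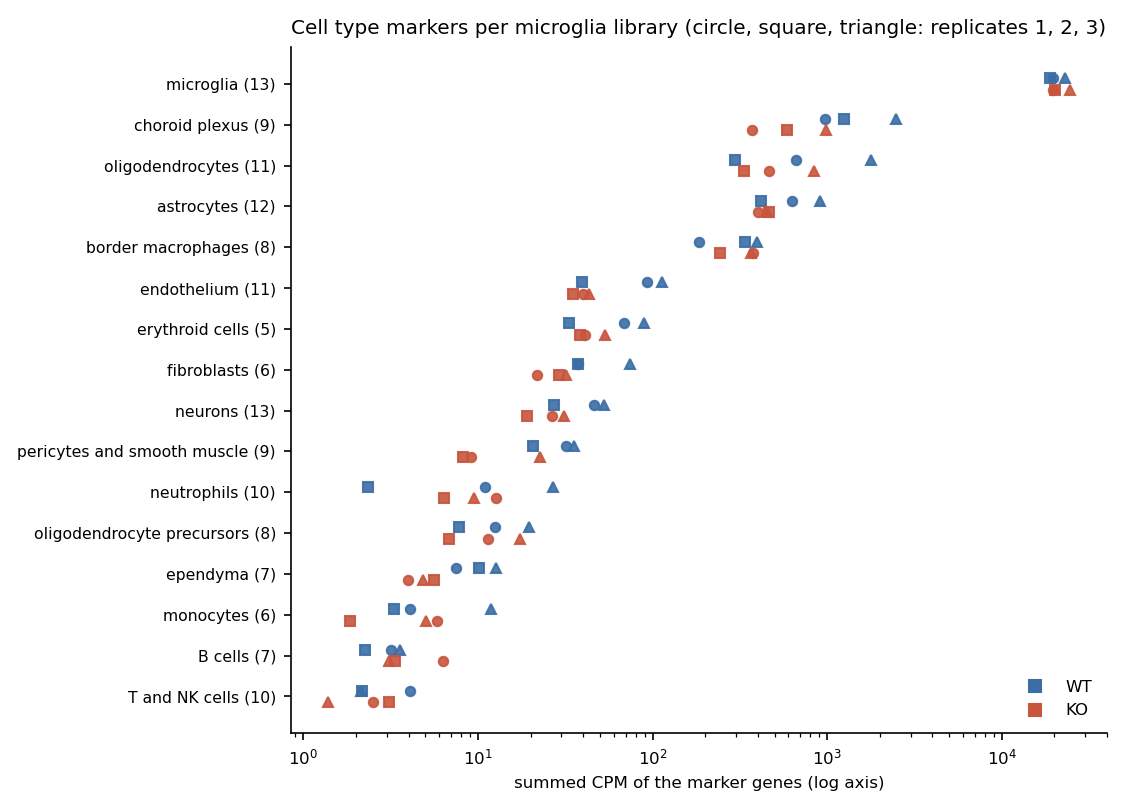
Summed CPM (log axis) of the markers of each cell type in the 6 libraries, with the number of markers in parentheses, blue for WT, red for KO, and circle, square and triangle for replicates 1, 2 and 3. Microglia markers overlap between 18787 and 24545 CPM; WT replicate 3 is the highest library for choroid plexus, oligodendrocytes and astrocytes.

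Of the genes that were lower in KO at this unadjusted p, 436 of 719 (60.6%) had a higher mean CPM in the astrocyte than in the microglia libraries. The share was 38.5% of all tested genes and 17.1% (57 of 334) of the genes higher in KO. Among the genes that stayed under it in all 6 leave-one-out fits, it was 111 of the 164 lower (67.7%) and 4 of the 48 higher (8.33%). The astrocyte table was scaled on its own totals, so levels set across both tables are approximate. With the mean level of the other-cell markers as a covariate, 462 genes were higher and 433 lower at that p, and 384 of the 1053 genes kept it, 150 of the 212 stable ones among them. With the choroid plexus markers alone as the covariate the counts were 768 and 942, 16 genes were called, and 126 of the 212 stable genes kept that p. The covariates differ between genotypes, so they also take up part of any genotype effect.

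A set restricted to genes at least 4-fold lower in the astrocyte libraries, with stable p, a mean of 5 CPM or more and libraries that did not overlap, held 23 genes higher and 17 lower in KO. It was drawn after the values had been seen and is given as a description. Of the genes that stayed under that p in all 6 leave-one-out fits, 26 of the 48 higher (54.2%) and 21 of the 164 lower (12.8%) were at least 4-fold lower in astrocytes, against 16.6% of the tested genes. With the other-cell covariate 19 of the 23 and 13 of the 17 kept an unadjusted p under 0.05, and with the choroid plexus covariate likewise 19 and 13. C5ar1, the receptor of the complement fragment C5a, was at 130.1, 114 and 172 CPM in WT and 210.2, 201 and 277 CPM in KO (log2 fold change 0.71, SE 0.21), and Tlr7, the endosomal receptor of single-stranded RNA, was at 134, 194 and 235 CPM in WT and 299, 257 and 316 CPM in KO (log2 fold change 0.61, SE 0.21). Gpr65, a proton-sensing receptor, was at 25.4, 26.4 and 28.2 CPM in WT and 41.6, 42.9 and 49.2 CPM in KO (log2 fold change 0.72, SE 0.21).

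Cysltr1, the receptor of cysteinyl leukotrienes, was at 37.8, 68.4 and 59.7 CPM in WT and 91.9, 91.4 and 109 CPM in KO (log2 fold change 0.80, SE 0.23), and Alox5ap, which presents arachidonic acid to 5-lipoxygenase, was at 107, 159.9 and 152 CPM in WT and 222, 203 and 205 CPM in KO (log2 fold change 0.57, SE 0.20). Zfp36, the protein tristetraprolin that destabilizes cytokine mRNAs, was among the most abundant at 1224, 1129 and 1553 CPM in WT and 1605, 2101 and 2239 CPM in KO (log2 fold change 0.58, SE 0.20). Rgs1, a regulator of G-protein signalling, was at 157, 110.2 and 95.9 CPM in WT and 286, 173 and 185 CPM in KO (log2 fold change 0.80, SE 0.25), and its log2 fold change was 0.15 with the choroid plexus covariate (p 0.582) and 0.48 with offsets for transcript length and GC content. In each of these genes every KO library was above every WT library.

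The lower side of the set held 17 genes. Cd72, an inhibitory co-receptor of B cells that microglia also carry, was at 31.8, 34.9 and 42.4 CPM in WT and 18.4, 14.5 and 20.7 CPM in KO (log2 fold change -1.05, SE 0.25, edgeR adjusted p 0.439, DESeq2 adjusted p 0.0581). Siglec1, the sialic acid receptor CD169 that interferon induces on macrophages, was at 111, 123 and 148 CPM in WT and 82.1, 54.4 and 82.7 CPM in KO (log2 fold change -0.82, SE 0.21). Acod1, which makes itaconate in LPS-stimulated macrophages, was at 14.1, 10.5 and 9.66 CPM in WT and 3.004, 3.85 and 6.27 CPM in KO (log2 fold change -1.41, SE 0.43). Nfkb2, the p100 subunit of NF-κB, was at 83.5, 54.9 and 66.4 CPM in WT and 42.7, 48.5 and 39.9 CPM in KO (log2 fold change -0.67, SE 0.22). The log2 fold change of Nfkb2 was -0.35 with length and GC offsets and -0.64 with the other-cell covariate. Under neither did it keep an unadjusted p under 0.05. Helz2, an interferon-induced nuclear co-activator, was at 79.01, 55.6 and 51.3 CPM in WT and 40.8, 25.6 and 38.4 CPM in KO (log2 fold change -0.86, SE 0.25). Slc4a5 met this rule too, although it was also 1 of the 9 choroid plexus markers.

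Transcript length moved with the contrast. When the 13002 genes with a known transcript length were divided into 5 classes of equal size, from a median of 1375 bases to one of 6974 bases, the median log2 fold change went through 0.11, 0.057, 0.016, -0.036 and -0.12. The share of genes lower in KO at an unadjusted p under 0.05 was 1.73% in the shortest class and 10.3% in the longest, and the share higher was 3.73% and 1.11%. In the longest class the library medians, relative to each gene's mean, were 0.10, 0.064 and 0.056 in WT and -0.020, -0.045 and -0.055 in KO on the log2 scale, so the genotypes separated. With per-library offsets for length and GC content, 300 genes were higher and 485 lower at that p, and 187 of the 212 stable genes kept it.

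Gene groups were described by their members at an unadjusted p under 0.05 beside the 5.07% (lower) and 2.35% (higher) of all tested genes. The libraries of the genotypes were separated without overlap in 6.57% (downward) and 6.53% (upward) of all tested genes. Interferon-stimulated genes were mostly on the lower side. Of 33 tested, 26 were lower and 7 higher in KO, 8 were lower and 0 higher at that p, and 9 were separated downward and 2 upward. Their median log2 fold change was -0.25 and stayed below 0 under all 15 alternatives (-0.34 to -0.12). With 1 library left out the same count was 5 (without KO replicate 1) to 9, with the other-cell covariate 6, with length and GC offsets 9, and with the choroid plexus covariate 1. In these genes 6 of the 33 had a higher level in astrocytes.

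The members at that p were Oasl1, Oas3, Rsad2, Ifit1, Ifit3, Oas1a, Ifit2 and Usp18. Ifit3, a protein induced by viral RNA, was at 60.8, 57.2 and 60.2 CPM in WT and 30.8, 31.9 and 44.6 CPM in KO, so the lowest WT library was above the highest KO library (log2 fold change -0.76, SE 0.22, edgeR adjusted p 0.542). Ifit2, of the same family, was at 56.2, 77.4 and 69.4 CPM in WT and 45.4, 43.7 and 47.0 CPM in KO (log2 fold change -0.5991, SE 0.20). Oasl1, a 2'-5' oligoadenylate synthetase-like protein, was at 15.003, 8.34 and 15.97 CPM in WT and 1.45, 5.27 and 5.78 CPM in KO (log2 fold change -1.67, SE 0.51). These 3 kept an unadjusted p under 0.05 in all 6 leave-one-out fits. Oasl1 did not keep it with the other-cell covariate (log2 fold change -1.24) or with the choroid plexus covariate (-0.93). Rsad2, the antiviral enzyme viperin, was at 22.2, 20.01 and 16.5 CPM in WT and 6.01, 12.04 and 12.4 CPM in KO (log2 fold change -0.97, SE 0.34), and Usp18, which removes ISG15 from proteins, overlapped at 41.8, 46.1 and 32.7 CPM in WT and 24.1, 23.5 and 34.8 CPM in KO (log2 fold change -0.58, SE 0.25). Isg15 itself overlapped and did not reach that p (log2 fold change -0.71, SE 0.44). Irf9, a subunit of the complex that activates these genes, was higher in every KO library (log2 fold change 0.24, SE 0.18, unadjusted edgeR p 0.207). Ifit3 and Ifit3b are near-identical copies between which reads can be divided, and Ifit3b was also lower in every KO library (log2 fold change -1.01, SE 0.49).

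The promoters of these genes are known for interferon-stimulated response elements, and the letters of that element were looked up in the 250 bases before each start in RefSeq (assembly GRCm38.p6, not the build of the counts). The motif searched, GAAA followed by any 2 bases and GAAA again, or its reverse complement, stood in 11 of the 25 members with a promoter entry (44%) and in 363 of 11015 tested genes (3.30%). It stood in 5 of the 7 matched members that were lower at an unadjusted p under 0.05. One match from each of these 5 is shown with its flanks in the direction of transcription, the motif letters in capitals.
Ifit1: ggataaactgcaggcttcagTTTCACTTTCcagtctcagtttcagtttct
Ifit3: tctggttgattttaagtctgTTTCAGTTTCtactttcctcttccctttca
Oas1a: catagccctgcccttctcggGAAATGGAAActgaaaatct
Oas3: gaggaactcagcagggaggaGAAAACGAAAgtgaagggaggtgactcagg
Rsad2: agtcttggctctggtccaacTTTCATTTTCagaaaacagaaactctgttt
They lie at chr19:34640765-34640814 (plus strand) for Ifit1, chr19:34583387-34583436 (plus strand) for Ifit3 and chr5:120907526-120907565 (minus strand) for Oas1a. Those of Oas3 and Rsad2 are at chr5:120777705-120777754 and chr12:26456543-26456592, both on the minus strand. A match describes the letters of these windows and is not a measured binding site.

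Antigen presentation was described by class. Of 19 genes of MHC class I presentation, 6 were lower and 0 higher in KO at an unadjusted p under 0.05, with a median log2 fold change of -0.16 whose sign turned under 4 of 15 alternatives. H2-K1, a classical class I heavy chain, was at 528, 293 and 412 CPM in WT and 284, 249 and 279 CPM in KO (log2 fold change -0.63, SE 0.22). Tap1 and Tap2, the peptide transporter of the endoplasmic reticulum, had no overlap, with log2 fold changes of -0.52 (SE 0.23) and -0.63 (SE 0.22). The class I count was 1 without WT replicate 1, 1 without KO replicate 2 and 1 with the other-cell covariate. H2-Q6, at 61.3, 19.5 and 19.8 CPM in WT and 14.5, 7.86 and 12.2 CPM in KO, has near-identical neighbours in its cluster and is uncertain.

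Of 13 class II presentation genes 10 were higher in KO, 2 of them and 0 lower ones at that p, and the median of 0.45 stayed above 0 under all 15 alternatives. The count of 2 was 0 without WT replicate 2, 1 without WT replicate 1 or KO replicate 3, and 4 without WT replicate 3 or with the other-cell covariate. H2-DMa, which helps load peptides on class II molecules, was at 49.9, 39.6 and 73.7 CPM in WT and 81.4, 82.6 and 88.8 CPM in KO without overlap (log2 fold change 0.61, SE 0.23), and Cd86, a co-stimulatory ligand, was at 76.8, 96.7 and 121 CPM in WT and 119.9, 137 and 151 CPM in KO (log2 fold change 0.45, SE 0.20). Cd74, the invariant chain, overlapped (log2 fold change 0.41, SE 0.29).

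Fc receptors and LPS sensing were described as separate groups, each with the signalling proteins below the receptors. The first group held 17 genes: Fc receptors, proteins of ITAM signalling, the activating pathway below them, and inhibitory receptors such as Cd300lf and Pirb. Of the 17, 14 were higher in KO, and the median was 0.32 (0.21 to 0.61 over the alternatives). At an unadjusted p under 0.05, 3 were higher and 0 lower. The count was 9 without WT replicate 3, 5 without KO replicate 1, 2 without WT replicate 2 or KO replicate 3, 1 without WT replicate 1 and 8 with the other-cell covariate. Besides Cd300lf, they were Pirb, an inhibitory receptor, at 37.02, 56.2 and 63.3 CPM in WT and 84.98, 73.6 and 82.3 CPM in KO (log2 fold change 0.61, SE 0.22), and Fcgr3, an activating IgG receptor, at 382, 452 and 924 CPM in WT and 734, 869.7 and 1138 CPM in KO (log2 fold change 0.63, SE 0.28). Pirb did not overlap and Fcgr3 did.

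Among 25 genes of LPS and Toll-like receptor sensing, 16 were higher and 9 lower in KO. At an unadjusted p under 0.05, 1 was higher (Tlr7), against 2.35% of all tested genes, and 0 were lower. In this group 5 were separated upward, against 6.53% of all tested genes, and 0 downward. Cd14 and Tlr4, the LPS receptors, belonged to the separated ones. Cd14 was at 269, 244 and 206 CPM in WT and 282, 310.5 and 324 CPM in KO (log2 fold change 0.32, SE 0.19, unadjusted edgeR p 0.114) and Tlr4 at 115, 156 and 158 CPM in WT and 197, 159 and 185 CPM in KO (log2 fold change 0.32, SE 0.19, unadjusted edgeR p 0.126), so both differences were small and did not pass.

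Among 16 tested cytokines, Il1a and Il1b were the 2 members higher at an unadjusted p under 0.05 and 0 were lower. Il1b, the secreted interleukin-1β, was at 192, 325 and 330.1 CPM in WT and 396, 400.4 and 479 CPM in KO (log2 fold change 0.57, SE 0.22). Il1a, the cell-bound form, was at 316, 313 and 272 CPM in WT and 542, 423 and 405 CPM in KO (log2 fold change 0.58, SE 0.20). Every KO library was above every WT library in both, and 0 cytokines were higher at that p with the other-cell covariate, 4 without WT replicate 1 and 1 without KO replicate 1 or KO replicate 3. Tnf was at 243, 115 and 138 CPM in WT and 199, 184 and 186 CPM in KO and its sign was not stable (log2 fold change 0.17, SE 0.26). Of 17 chemokines 1 was higher at that p, Ccl5, which attracts T cells, at 7.16, 9.33 and 16.4 CPM in WT and 16.1, 25.3 and 32.5 CPM in KO (log2 fold change 1.15, SE 0.36), with WT replicate 3 just above KO replicate 1. Of 19 NF-κB subunits and feedback genes, 1 was lower (Nfkb2) and 0 were higher, with a median of -0.017 that turned sign under 2 of 15 alternatives. The lower count was 2 without WT replicate 2, 3 without WT replicate 3, 6 with the choroid plexus covariate and 0 with the other-cell covariate. With length and GC offsets 0 of these NF-κB genes were lower and 1 was higher at that p. For chemokines the higher count was 2 without WT replicate 2 and 3 without WT replicate 3.

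Complement genes lay on both sides, with 5 of 16 higher and 11 lower in KO. Their median log2 fold change was -0.35 and stayed below 0 under all 15 alternatives (-0.38 to -0.091). The libraries were separated downward in 4 and upward in 2, against 6.57% and 6.53% of all tested genes. The anaphylatoxin receptors C5ar1 and C3ar1 were higher in every KO library, the latter at 223, 293 and 376 CPM in WT and 429, 386 and 476 CPM in KO (log2 fold change 0.52, SE 0.21). C3, the central component, was lower in every KO library at 23.98, 28.9 and 28.5 CPM in WT and 10.5, 11.7 and 19.9 CPM in KO (log2 fold change -0.97, SE 0.30), and its mean in astrocytes was 155 CPM. Over the 16 genes 2 were higher and 2 lower at an unadjusted p under 0.05, and with 1 library left out 1 to 2 were higher and 1 to 3 lower.

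Few genes of microglial identity had a small p. Of 23 homeostatic genes, 16 were higher and 7 lower in KO and 1 reached an unadjusted p under 0.05. That was Csf1r, the receptor of the survival factor CSF1, at 5831, 4468 and 5162 CPM in WT and 3475, 3224 and 4318 CPM in KO, where no libraries overlapped (log2 fold change -0.52, SE 0.19, 95% interval -0.93 to -0.1043, edgeR adjusted p 0.6). It did not reach that p without KO replicate 1, without KO replicate 2, with either marker covariate or with length and GC offsets. P2ry12, the ADP receptor of resting microglia, and Tmem119, a microglial membrane marker, overlapped, with log2 fold changes of 0.27 (95% interval -0.17 to 0.72) and -0.18 (-0.65 to 0.29), and both changed sign under some alternatives. Cx3cr1, the fractalkine receptor, also overlapped, at 0.21.

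Of 23 genes of the disease-associated state, 2 were higher and 1 lower at that p. The higher count was 0 without KO replicate 3, 5 without WT replicate 3 and 1 without any other single library, and with length and GC offsets 0 passed in either direction. Clec7a, the β-glucan receptor dectin-1, was at 8.90, 5.74 and 16.3 CPM in WT and 20.5, 17.9 and 26.0 CPM in KO without overlap (log2 fold change 1.04, SE 0.37), Cd9, a tetraspanin, had a log2 fold change of 0.42, and Axl, a receptor for apoptotic cells, one of -0.65. Among 26 lysosomal and phagocytic genes, the proteases Ctss and Ctsc and the scavenger receptor Msr1 were higher at that p, Ctss at 3793, 4429 and 5519.6 CPM in WT and 6809, 5348 and 6607 CPM in KO (log2 fold change 0.43, SE 0.19), and Axl was lower. The higher count was 0 without WT replicate 1, without KO replicate 1 or without KO replicate 3. With length and GC offsets, 0 members of this group reached that p in either direction.

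**Figure D5:**
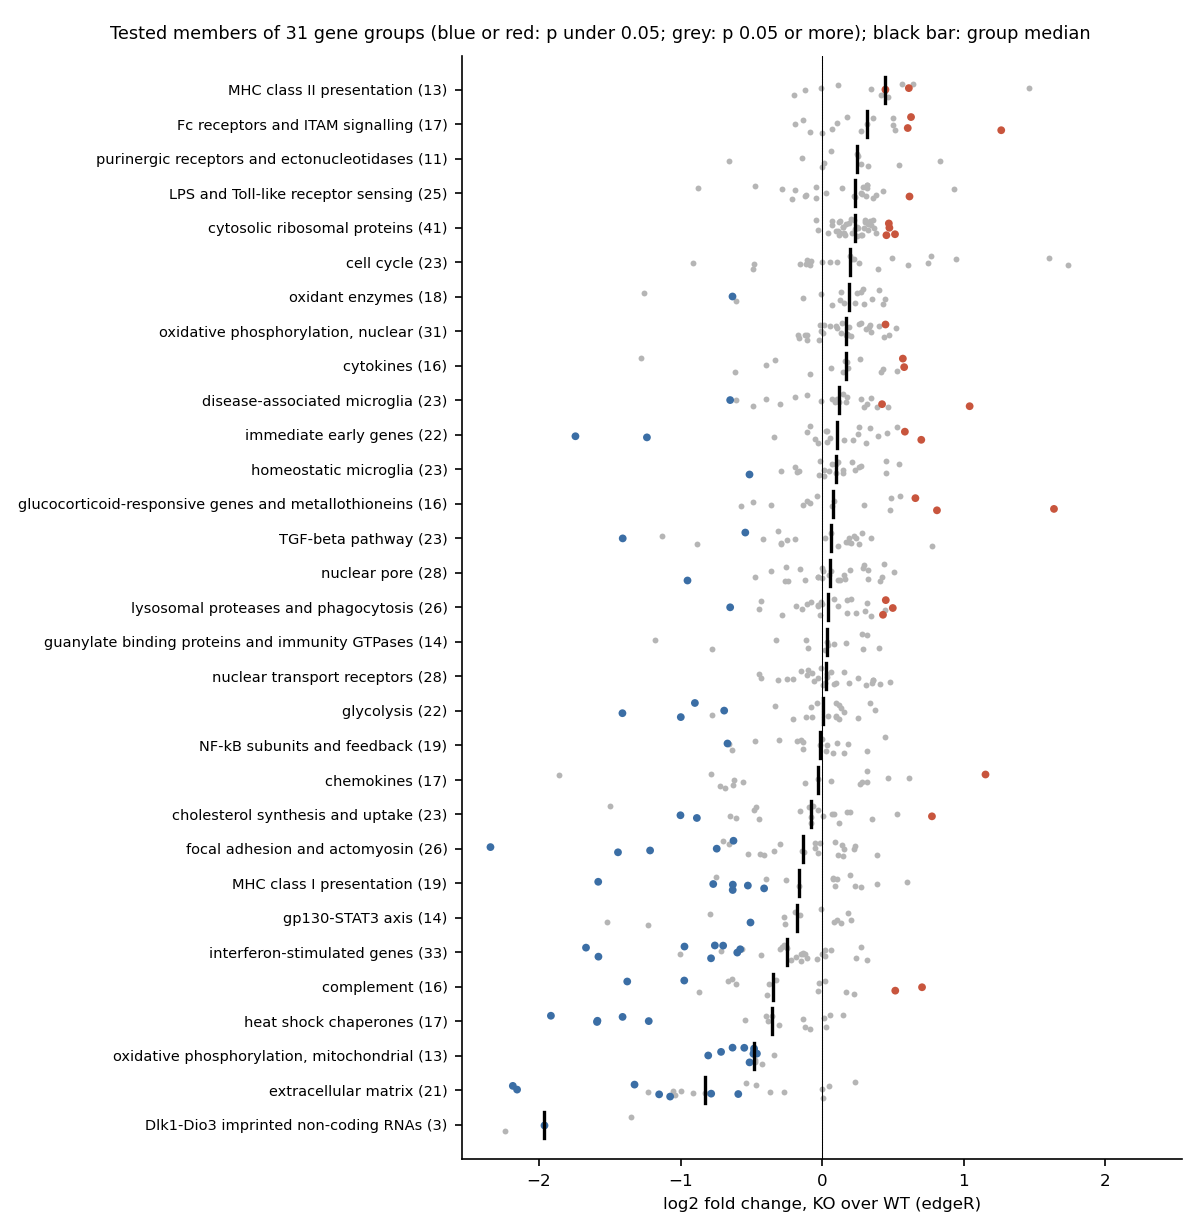
Log2 fold change of KO over WT (horizontal axis) for the tested members of 31 gene groups, with the number tested in parentheses; blue and red points had an unadjusted edgeR p under 0.05, and the black bar is the group median. The groups are ordered by median, from -1.96 for the 3 Dlk1-Dio3 RNAs to 0.45 for MHC class II presentation.

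Matrix and adhesion genes were mostly lower in KO. Of 21 extracellular matrix genes, 17 were lower, 7 at an unadjusted p under 0.05 and 0 higher, with a median log2 fold change of -0.83 (-1.03 to -0.53 over the alternatives). Lamb2, a laminin chain of basement membranes, was at 31.3, 27.1 and 22.9 CPM in WT and 12.5, 11.5 and 15.4 CPM in KO (log2 fold change -1.07, SE 0.28), Col4a1, a basement membrane collagen, at 17.6, 8.25 and 18.6 CPM in WT and 4.26, 6.02 and 7.71 CPM in KO (log2 fold change -1.32, SE 0.41), and Fn1, fibronectin, at 123, 133 and 235 CPM in WT and 88.6, 76.9 and 123 CPM in KO (log2 fold change -0.78, SE 0.25). The libraries of these 3 did not overlap. In this group 18 of 21 genes had a higher level in the astrocyte libraries, and the median transcript length was 5930 bases against 3460.5 for all genes. The count was 3 without WT replicate 3, 4 without WT replicate 1 or KO replicate 2, 2 with the choroid plexus covariate and 1 with the other-cell covariate. Col1a1, Col1a2, Col3a1 and Dcn are on the list of this group and also on the other-cell marker list.

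Of 26 focal adhesion and actomyosin genes, 18 were lower and 8 higher in KO, and without WT replicate 1 the split was 14 and 12. The median was -0.14. The libraries were separated downward in 5 and upward in 3, against 6.57% and 6.53% of all tested genes. At that p 5 were lower and 0 higher. Beside Parva and Myh10 these were Myh9, the main non-muscle myosin of leukocytes, at 2752, 1772 and 1597 CPM in WT and 1389, 1209 and 1458 CPM in KO (log2 fold change -0.63, SE 0.23), Myh14, another non-muscle myosin (log2 fold change -1.44, SE 0.40), and Vcl, vinculin (log2 fold change -0.74, SE 0.33). With the other-cell covariate 2 members were lower at that p, without WT replicate 1 or KO replicate 2 it was 3 and without KO replicate 3 it was 8.

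The 13 protein-coding genes of the mitochondrial genome were all lower in KO, 9 of them at an unadjusted p under 0.05, with a median of -0.48. ND5, a subunit of complex I, was at 1642, 1418 and 1938 CPM in WT and 1024, 1182 and 1064 CPM in KO (log2 fold change -0.63, SE 0.19). ND2 and ND6, of the same complex, had log2 fold changes of -0.71 and -0.80, and no libraries of the 3 overlapped. All 13 had a higher level in the astrocyte libraries, and they share polycistronic precursors. The count at that p was 3 without WT replicate 3, 3 without KO replicate 1 and 6 without KO replicate 2. With the other-cell covariate the median was -0.29 with 2 members at that p, and the choroid plexus covariate gave a median of -0.090, with 7 lower and 6 higher. Of the 31 nuclear genes of oxidative phosphorylation, 23 were higher and 8 lower in KO, 1 at that p, with a median of 0.17 (0.021 with length and GC offsets). Of these 31 genes, 30 also had a higher level in the astrocyte libraries.

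Of 41 cytosolic ribosomal protein genes, 39 were higher in KO, and 4 were higher and 0 lower at that p. Of the 41, 11 were separated upward, against 6.53% of all tested genes, and 0 downward. Their median was 0.23 and stayed above 0 under all 15 alternatives (0.18 to 0.39). The count of 4 became 7 without WT replicate 3, and 1 or 2 without any other single library. Rpl32, a protein of the large subunit, was at 74.5, 84.0 and 102 CPM in WT and 128, 117 and 121 CPM in KO (log2 fold change 0.47, SE 0.19). The group has a median transcript length of 1120 bases, and its median with length and GC offsets was 0.18. The summed level was 10460, 10476 and 11084 CPM in WT and 12944, 11854 and 12533 CPM in KO, without overlap.

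Among metabolic genes, Srebf2, the transcription factor of cholesterol synthesis, was at 69.9, 44.4 and 56.4 CPM in WT and 24.8, 26.9 and 35.3 CPM in KO (log2 fold change -1.0003, SE 0.24, edgeR adjusted p 0.439). It was lower in every KO library, while over the 23 cholesterol genes 2 were lower and 1 higher at an unadjusted p under 0.05, the lower count being 1 without WT replicate 1 and 4 without WT replicate 2. Of 22 genes on the glycolysis list, which also holds Acod1, 11 were higher and 11 lower in KO. Their median log2 fold change was 0.0051, and its sign turned under 5 of 15 alternatives. At that p 4 were lower and 0 higher. Acod1 was 1 of these 4, beside the hexokinase Hk1 (log2 fold change -0.8984, SE 0.25). Hk3, the myeloid hexokinase and also 1 of the 4, was at 144, 106 and 78.1 CPM in WT and 57.5, 74.9 and 75.5 CPM in KO (log2 fold change -0.69, SE 0.24). The glycolysis count was 2 without KO replicate 1 and 3 to 6 without any other single library.

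Of 16 genes that respond to glucocorticoids or metals, 9 were higher and 7 lower in KO. Their median log2 fold change was 0.074, and its sign turned under 2 of 15 alternatives. At that p 3 were higher and 0 lower. Fkbp5, a co-chaperone of the glucocorticoid receptor and a usual readout of its activity, was at 75.7, 79.1 and 84.1 CPM in WT and 138, 114 and 132 CPM in KO (log2 fold change 0.66, SE 0.18, edgeR adjusted p 0.542). Sult1a1, a sulfotransferase, was at 23.2, 39.2 and 51.3 CPM in WT and 76.4, 57.5 and 67.7 CPM in KO (log2 fold change 0.81, SE 0.26). Mt2, metallothionein 2, was at 0.679, 1.70 and 1.67 CPM in WT and 4.46, 4.68 and 3.65 CPM in KO (log2 fold change 1.64, SE 0.74). All 3 were higher in every KO library, and Fkbp5 and Sult1a1 kept that p in all 6 leave-one-out fits.

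Stress genes rested on 1 library. Of 17 heat shock chaperones, 13 were lower in KO and 5 at an unadjusted p under 0.05, with a median of -0.35, which was 0.020 without WT replicate 1, where 2 reached that p. Hspa1a, an inducible HSP70, was at 10983, 3063 and 2508 CPM in WT and 1003, 2032 and 2663 CPM in KO, and Hspa1b, its near-identical copy, at 10352, 2782 and 2850.4 CPM in WT and 790.4, 1898 and 2799.6 CPM in KO. WT replicate 1 was more than 3 times the other WT libraries, which overlapped with KO, and the log2 fold change of Hspa1a was -1.59 with 6 libraries and ranged over -1.93 to -0.58 with 1 left out. Hspb1, a small heat shock protein, was at 122, 13.4 and 6.31 CPM in WT and 8.72, 14.3 and 15.98 CPM in KO and was higher in KO, at 0.37, without that library. Hsph1, an HSP110, was the exception, at 262, 179.9 and 115 CPM in WT and 63.1, 80.6 and 101 CPM in KO with no overlap (log2 fold change -1.22, SE 0.28, DESeq2 adjusted p 0.0161) and a leave-one-out range of -1.48 to -0.89. Dnajb1, an HSP40, was at 623, 315 and 149.8 CPM in WT and 134, 124 and 164 CPM in KO (log2 fold change -1.41, SE 0.38).

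Immediate early genes, which are induced within minutes of stimulation or of tissue dissociation, moved with the same library. With all 6 libraries 2 of 22 were higher and 2 lower at that p, with a median of 0.10, and without WT replicate 1 there were 13 higher and 0 lower, with a median of 0.54. The median was below 0 under 2 of 15 alternatives, to -0.026 without WT replicate 2, where 8 were higher and 14 lower in KO, and to -0.27 with the choroid plexus covariate. Dusp1, a phosphatase of MAP kinases that is one of them, was at 394, 238 and 379.7 CPM in WT and 457, 690.0 and 523 CPM in KO (log2 fold change 0.70, SE 0.23). Fos was at 1256, 534 and 811 CPM in WT and 1166, 1252 and 1413 CPM in KO (log2 fold change 0.53, SE 0.27), so WT replicate 1 reached the KO level. The part of the dissociation in these differences was not tested.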

How the data were processed

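Microglia libraries of 3 WT and 3 KO mice were compared. The authors deposited estimated counts per gene symbol, made with STAR 2.7.10b and RSEM 1.3.3 on GRCm39 per the submitters' processing notes, which also name limma. The values are unnormalized: 3.77% to 5.27% of those above 0 were not whole (tolerance 0.001), and they were rounded here. All value columns were matched to a library by name. Replicates of 1 group never agreed within counting noise (chi-square per degree of freedom 29.8 to 71.4). CPM were computed from the library totals, 10.3 M to 14.5 M. No source used here states whether strand was used in counting.

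edgeR 4.0.16 (R 4.3.3; glmQLFit, glmQLFTest, TMM, filterByExpr with minimum count 10, Benjamini-Hochberg) was fitted to the 6 libraries with genotype as the only term, after it had been tested on simulated data; the common biological coefficient of variation came to 0.393. The SE of a log2 fold change is its size over the square root of F. A call is an adjusted p under 0.05. Alternatives were DESeq2 1.42.0, its size factors in edgeR, no filter, a minimum count of 50, limma voom with quality weights (limma 3.58.1), each library left out, the replicate number as a block and an other-cell marker covariate. The choroid plexus covariate, offsets for length and GC (GENCODE M21 transcripts; 91.6% of genes matched) and leaving out genes higher in astrocytes were chosen after seeing the data. Marker shares were compared with a 2-sided exact permutation test.

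The gene lists and the rules were chosen with earlier results of these data known. The rule names the importins; the 10 largest differences in each direction at a mean of 5 CPM or more without overlap of the libraries, leaving out clone and model names; the 5 smallest p in each direction; per group up to 3 members at an unadjusted p under 0.05, up to 2 without overlap and the most abundant; up to 5 of the 100 most abundant genes at that p; up to 5 DESeq2 calls; and the most abundant marker per cell type. Other genes named were chosen after their values were seen. Replicates are separate animals by the labels' numbers. Results for some genes are not reported here.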

Additional observations from a re-analysis of the deposited data

How the results depend on the processing

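The log2 fold change of Kpna4 kept its sign under every alternative run (-0.45 to -0.20). Its unadjusted edgeR p was 0.0248 with length and GC offsets (-0.40) and 0.0498 without WT replicate 1 (-0.45). Under the other alternatives its unadjusted p was above 0.05. Genes called by edgeR numbered 0 with all 6 libraries, 0 to 2 with 1 library left out (2 without KO replicate 2), 121 without a filter, 30 with the replicate block and 16 with the choroid plexus covariate; DESeq2 called 41. The 30 genes of the replicate block, Meg3, Parva and Igf2r among them, were all lower in KO, 20 had a higher level in astrocytes, and 12 were shared with DESeq2. Nothing in the labels says that a replicate number links a WT and a KO animal. Same-numbered WT and KO libraries deviated together with correlations of 0.14, 0.059 and 0.25, and differently numbered ones with -0.19 to 0.061. Whether the numbers pair the animals was not tested. Genes at an unadjusted p under 0.05 numbered 678 to 1349 with 1 library left out, 1710 with the choroid plexus covariate and 560 when genes higher in astrocytes were left out. On the lower side there were 1089 without a filter, 433 with the other-cell covariate and 283 without the genes higher in astrocytes; on the higher side 188 to 581 with 1 library left out and 768 with the choroid plexus covariate. The difference in other-cell marker share ran from -0.224 to -0.048 percentage points with 1 library left out, was -0.161 with brain cell markers only, and the median log2 fold change over 91 markers was -0.65.

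Of the 31 group medians 15 never changed sign. Leaving out 1 library gave -0.29 to 0.065 for MHC class I, 0.078 to 0.30 for purinergic receptors, -1.03 to -0.53 for extracellular matrix, -0.026 to 0.54 for immediate early genes, -0.50 to 0.020 for heat shock chaperones, -0.0012 to 0.35 for glucocorticoid-responsive genes and -0.0095 to 0.20 for cell cycle. With the replicate block MHC class I was 0.064. With the other-cell covariate the medians were 0.035 for MHC class I, 0.22 for lysosomal genes, 0.10 for purinergic receptors, 0.54 for Fc receptors, -0.56 for extracellular matrix and -0.44 for Dlk1-Dio3 RNAs. With the choroid plexus covariate they were -0.15 for cytokines, -0.24 for NF-κB, -0.091 for complement, 0.25 for lysosomal genes, 0.61 for Fc receptors, -0.090 for mitochondrial oxidative phosphorylation, 0.39 for ribosomal proteins, 0.33 for cholesterol, 0.29 for glucocorticoid-responsive genes and 0.50 for oxidant enzymes. DESeq2 gave 0.079 and no filter 0.080 for purinergic receptors. A minimum count of 50 gave -0.082 for glucocorticoid-responsive genes and -0.078 for cell cycle, for which limma voom gave 0.00017. Length and GC offsets gave 0.021 for nuclear oxidative phosphorylation and 0.19 for glucocorticoid-responsive genes. Among single genes, Tnf was -0.035 to 0.56 with 1 library left out (-0.035 without WT replicate 2) and -0.21 with the choroid plexus covariate, P2ry12 -0.046 with length and GC offsets, Tmem119 -0.36 to 0.0091 with 1 library left out (0.0091 without KO replicate 1), 0.071 with the choroid plexus covariate and 0.013 with length and GC offsets, and Hspb1 -2.42 to 0.37 with 1 library left out (0.37 without WT replicate 1). The cause of these moves was not tested. Below 10 CPM the counts limit what a difference can show.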
